A study of Mus musculus with 4 samples.

Results

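Chemokine receptors are the 8 genes Ccr7, Ccr9, Ccr2, Ccr6, Cxcr3, Cxcr4, Cxcr5 and Cxcr6, chosen by name from the 31053 genes of the feature list. All 8 were found there. Their RNA was followed in leukocytes of the mouse pancreas and its draining lymph node by droplet-based single-cell sequencing with a 5' gene expression kit. There were 4 libraries, 1 for each combination of tissue and genotype, all from pre-diabetic females that carry the Ocabfl/fl allele. Ocab is a name for Pou2af1, a coactivator that binds the octamer factors Oct1 and Oct2 on DNA. The 2 control libraries came from Ocabfl/fl animals. The 2 others came from Ocabfl/fl.CD4-Cre animals, in which the Cd4 promoter drives the recombinase. That promoter is active in CD4+ CD8+ thymocytes, so the descendants of both T cell lineages can carry the recombined allele. Pancreas libraries held flow-sorted CD45+ cells pooled from 4 mice of 12 weeks, and lymph node libraries held magnetically separated CD3 T cells pooled from 5 mice of 8 weeks.

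With 1 library per group no difference between groups could be tested, so no p-value is given. Reads were counted by unique molecular identifier (UMI), and the UMIs of a gene were summed over the barcodes of a cell gate. Levels (CPM) are these sums per 1000000 UMIs of all genes in the gate. A barcode stands for 1 droplet, and in most cases 1 cell. Each level, share and ratio has a 95% interval for counting error. How far animals or preparations vary is not in it. A ratio counts as past the fold where it exceeds 1.5-fold in either direction with at least 50 UMIs of the gene over both libraries. Between tissues, the age, the cell selection and the number of mice differ as well, and these cannot be told apart from the tissue.

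The 8 genes encode receptors with 7 membrane-spanning helices that couple to inhibitory G proteins and steer leukocytes along gradients of small secreted proteins. CCR7 binds CCL19 and CCL21 and brings naive lymphocytes and mature dendritic cells to the T cell zones of lymph nodes. CCR9 binds CCL25, a ligand of thymus and small intestine. CCR2, CXCR3 and CXCR6 are receptors of effector cells and monocytes: CCR2 binds CCL2, CCL7 and CCL12, CXCR3 binds the interferon-induced CXCL9 and CXCL10, and CXCR6 binds CXCL16, which is membrane-bound on macrophages and dendritic cells. CXCR5 binds CXCL13 and leads B cells and follicular helper T cells to follicles. CCR6 binds CCL20, and CXCR4 binds CXCL12, the retention signal of bone marrow. In type 1 diabetes, T cells that carry such receptors enter the islets, where CXCL9, CXCL10 and CXCL16 can be made by local cells.

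The members lie on 5 chromosomes of GRCm38 in the GENCODE M21 annotation. Ccr9 (ENSMUSG00000029530) spans chr9:123678439-123784330, Cxcr6 (ENSMUSG00000048521) chr9:123806475-123811760 and Ccr2 (ENSMUSG00000049103) chr9:124101950-124113557, all on the plus strand of 1 stretch of chromosome 9. Cxcr5 (ENSMUSG00000047880) lies elsewhere on that chromosome, at chr9:44511787-44561877 on the minus strand. Ccr7 (ENSMUSG00000037944) spans chr11:99144196-99155077 on the minus strand and Ccr6 (ENSMUSG00000040899) chr17:8236043-8257141 on the plus strand. Cxcr3 (ENSMUSG00000050232) spans chrX:101731535-101734269 and Cxcr4 (ENSMUSG00000045382) chr1:128588199-128592293, both on the minus strand. Cxcr6 lies wholly inside Fyco1, a gene of the opposite strand, and Ccr9 overlaps Lztfl1 on the opposite strand and the noncoding Gm17200 on its own. The counting of strand is not given in the sources used here, so reads of such overlapping pairs could be hard to assign.

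Promoter letters are shown because Pou2af1 acts at octamer sites, ATGCAAAT. RefSeq windows of 250 bases before a transcription start (GRCm38.p6) existed for 6 of the 8 members, 7 windows in all, and for neither Ccr7 nor Cxcr5. They were searched on both strands for the octamer, for the octamer with 1 open base (ATGCNAAT, which holds every octamer match), for a RUNX motif (TGTGGT), a T-box motif (GGTGTGA) and a KLF motif (GGGTGTGG). The windows of 3 members are printed, with any match in capitals: Ccr6 holds the only octamer, Cxcr6 had the highest level of the members in pancreas CD8-only barcodes, and Ccr9 had the lowest ratio of pancreas to lymph node in that gate. Coordinates are chr17:8235793-8236042 for Ccr6, chr9:123806227-123806474 for Cxcr6 and chr9:123766961-123767168 for Ccr9, on the plus strand. Each is cut before the first annotated exon base of the member within the window. The Ccr9 window lies inside the Ccr9 span given above. A further Ccr6 window, chr17:8242276-8242525, also lies inside its gene, holds no octamer and is not printed.
Ccr6: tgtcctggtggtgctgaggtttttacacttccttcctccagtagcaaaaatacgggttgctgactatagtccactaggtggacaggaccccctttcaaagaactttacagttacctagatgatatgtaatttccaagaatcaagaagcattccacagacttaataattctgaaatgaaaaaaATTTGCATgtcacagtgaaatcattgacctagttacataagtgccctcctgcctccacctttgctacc
Cxcr6: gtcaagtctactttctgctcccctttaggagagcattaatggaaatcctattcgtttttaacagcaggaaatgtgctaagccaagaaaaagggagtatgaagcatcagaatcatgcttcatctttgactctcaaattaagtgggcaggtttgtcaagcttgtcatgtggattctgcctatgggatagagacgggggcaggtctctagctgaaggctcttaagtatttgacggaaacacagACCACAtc
Ccr9: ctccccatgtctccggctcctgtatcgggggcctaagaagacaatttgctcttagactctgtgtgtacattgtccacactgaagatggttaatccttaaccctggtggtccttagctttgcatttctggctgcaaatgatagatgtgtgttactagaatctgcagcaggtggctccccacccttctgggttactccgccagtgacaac
In the Ccr6 window the octamer stands on the opposite strand, 68 bases before the start. Among 32817 windows of this length over all genes, 526 (1.60%) hold the octamer and 940 (2.86%) the open form. The RUNX match of the Cxcr6 window begins 10 bases before the start on the opposite strand. That motif is short and is found in 14.0% of all windows. A further RUNX match lies in the Cxcr3 window, 110 bases before its start, within the 122 bases of annotated Cxcr3 exon there. The T-box and KLF motifs, found in 3.33% and 3.19% of all windows, matched none of the 7 windows. A match describes letters and not a bound site.

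The 4 libraries held 3059 to 6963 barcodes with 14851217 to 32798133 UMIs, of which 2843 to 5304 (lymph node) and 4004 to 6238 (pancreas) barcodes were kept, at medians of 3615 to 4613 UMIs. Pairs of libraries shared 21 to 70 barcode sequences, at most 1.31% of the smaller library. Pou2af1, the targeted gene, was at 5.27 CPM (45 UMIs) in all control T barcodes of the pancreas and at 0.645 CPM (10 UMIs) in those of CD4-Cre. In the lymph node the values were 4.60 CPM (62 UMIs) and 0.123 CPM (3 UMIs). In pancreas B cells, which the Cre does not target, it was at 230 and 231 CPM. T cells were split by marker UMIs into CD4-only (Cd4 and neither Cd8a, Cd8b1 nor Foxp3), CD8-only (Cd8a or Cd8b1 and neither Cd4 nor Foxp3) and Foxp3 barcodes, the regulatory T cells. Cd3e, itself a marker gene of the T cell gate, was seen in 98.02% to 100% of the barcodes of these 3 gates. That share follows from the gating and is no separate check of purity. The CD8-only gate held 417 control and 630 CD4-Cre barcodes in the pancreas, and 687 and 1452 in the lymph node. B (841 and 1270), NK (143 and 178) and myeloid (561 and 522) gates were filled in the pancreas. The CD3-selected lymph node libraries held 42 and 0 B, 1 and 0 NK, and 56 and 24 myeloid barcodes, so of these only the control myeloid gate was used.

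**Figure D1:**
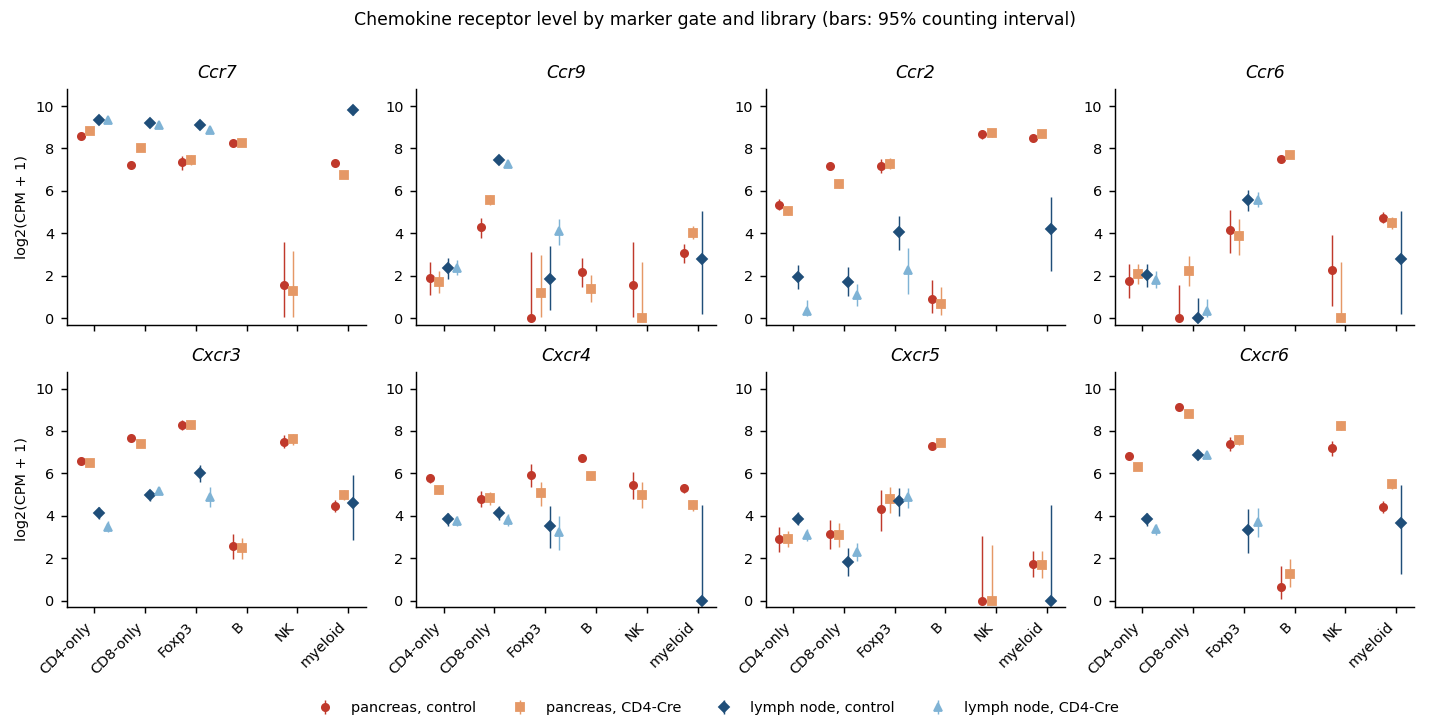
Level of the 8 receptors, as log2(CPM + 1), in each marker gate (x axis) of each of the 4 libraries (colours and marker shapes); lines are 95% counting intervals. Ccr6 and Cxcr5 are highest in B cells, Ccr2 in NK and myeloid barcodes, and Ccr9 in lymph node CD8-only barcodes.

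Ccr7, the lymph node homing receptor, was higher in all lymph node T cell gates than in the same gates of the pancreas. In CD8-only barcodes it was at 150 CPM (283 UMIs; interval 133 to 169) in the pancreas of controls, 261 CPM (780 UMIs; 243 to 279) in the pancreas of CD4-Cre, 582 CPM in the lymph node of controls and 550 CPM in that of CD4-Cre. The 2 lymph node values stood above both pancreas values, and within the pancreas the CD4-Cre value stood above the control, with intervals that do not overlap. In CD4-only barcodes the 4 levels were 387, 453, 642 and 642 CPM in the same order, a narrower spread. In Foxp3 barcodes they were 161, 177, 553 and 473 CPM, so that in pancreas both regulatory T cell levels lay near the control CD8-only level. B cells of the pancreas had 307 and 305 CPM. NK barcodes of the pancreas gave 1 UMI in each genotype, or 1.95 and 1.41 CPM, which sets the background in those libraries.

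The share of CD8-only barcodes with a Ccr7 UMI was 29.3% and 52.1% in pancreas and 91.3% and 89.9% in lymph node. Median depth also differed, at 3803 and 3971.5 UMIs in pancreas against 5538 and 5382.5 in lymph node. Each barcode was therefore thinned to 1000 UMIs, which left out 0 to 6 shallower barcodes of a gate. The thinned shares were 12.5%, 23.9%, 41.7% and 42.6%. In NK barcodes, at median depths of 3361 and 3703.5 UMIs, they were 0% (0 of 141; interval up to 2.58%) and 0.568%. The difference between the pancreas libraries and that between the tissues were thus present at 1 depth.

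Ccr9 was highest in the CD8 T cells of the lymph node. It was at 18.6 CPM (35 UMIs; 12.9 to 25.8) and 46.4 CPM (139 UMIs; 39.0 to 54.8) in CD8-only barcodes of control and CD4-Cre pancreas, and at 174 CPM (690 UMIs) and 153 CPM (1249 UMIs) in those of the lymph node. As for Ccr7, both lymph node values stood above both pancreas values, and the CD4-Cre pancreas value above the control one. Thinned to 1000 UMIs, 1.92% and 4.94% of the pancreas barcodes had a UMI, against 15.6% and 14.8% in lymph node and 0% in NK barcodes. CD4-only barcodes were at 2.29 to 4.19 CPM in all 4 libraries, close to the 1.95 CPM (1 UMI) of control NK barcodes. Foxp3 barcodes had 0, 1 and 2 UMIs in 3 libraries. The lymph node of CD4-Cre had 21 UMIs (16.0 CPM), of which 52.4% came from 5 barcodes.

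Ccr2, the receptor for monocyte-attracting chemokines, was carried by pancreas T cells and was nearly missing from lymph node T cells. CD8-only barcodes had 145 CPM (274 UMIs; 129 to 164) and 79.2 CPM (237 UMIs; 69.4 to 89.9) in control and CD4-Cre pancreas, against 2.27 and 1.10 CPM (9 UMIs each) in lymph node. CD4-only barcodes had 39.8 and 32.7 CPM in pancreas and 2.86 and 0.280 CPM in lymph node, the last from 3 UMIs. Foxp3 barcodes had 144 and 155 CPM in pancreas and 15.8 and 3.81 CPM in lymph node. Both lymph node levels were thus below both pancreas levels in every T cell gate. Pancreas B cells, a background for this gene, gave 3 UMIs in each genotype. NK barcodes reached 404 and 422 CPM and myeloid barcodes 358 and 406 CPM, the highest gates for Ccr2, whose intervals overlapped between NK and myeloid in CD4-Cre.

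Cxcr3, the receptor for interferon-induced ligands, followed the same tissue order. CD8-only barcodes had 204, 168, 30.5 and 35.2 CPM in control pancreas, CD4-Cre pancreas, control lymph node and CD4-Cre lymph node. Foxp3 barcodes had 310, 312, 63.2 and 29.0 CPM and CD4-only barcodes 95.7, 90.1, 16.6 and 10.2 CPM. In each of the 3 gates both pancreas libraries lay above both lymph node libraries. Within the pancreas the order of T cell gates was Foxp3, CD8-only and CD4-only in both genotypes, with NK barcodes (180 and 193 CPM) next to CD8-only. B cells gave 4.90 and 4.58 CPM.

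Cxcr6, the receptor of tissue-resident and effector T cells, was highest in pancreas CD8 T cells. CD8-only barcodes had 555 CPM (1046 UMIs; 522 to 590) in control pancreas and 442 CPM (1323 UMIs; 418 to 466) in CD4-Cre pancreas, against 117 CPM (465 UMIs) and 116 CPM (942 UMIs) in lymph node. The shares of these barcodes with a UMI were closer together, at 53.7%, 42.1%, 40.6% and 38.8%, with the deeper barcodes in lymph node. Thinned to 1000 UMIs they were 32.5%, 22.6%, 10.6% and 10.4%. Pancreas B cells, at median depths of 3562 and 3420 UMIs, gave 0.119% and 0.158%. The lymph node libraries held too few B and NK barcodes to give a background of their own. CD4-only barcodes had 114, 78.1, 13.4 and 9.32 CPM, and 57.3% of the 75 UMIs in control lymph node came from 5 barcodes. Foxp3 barcodes had 166 and 190 CPM in pancreas and 9.21 and 12.2 CPM (7 and 16 UMIs) in lymph node.

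Fyco1, the gene that encloses Cxcr6, stayed between 25.2 and 39.3 CPM in the CD4-only and CD8-only gates of the 4 libraries while Cxcr6 ranged from 9.32 to 555 CPM. In CD8-only barcodes the share with a Cxcr6 UMI was 59.7% with and 52.7% without a Fyco1 UMI in control pancreas, and 53.2% with and 40.5% without in CD4-Cre pancreas. In lymph node it was 38.9% with and 40.9% without in control, and 45.6% with and 37.5% without in CD4-Cre. The share was thus higher with Fyco1 in 3 of the 4 libraries. Lztfl1, which overlaps Ccr9, was at 10.1 and 14.7 CPM in pancreas and 23.4 and 18.7 CPM in lymph node CD8-only barcodes. The share with a Ccr9 UMI was higher with than without Lztfl1 in all 4 libraries, at 10.5% against 5.78% and 23.1% against 14.6% in control and CD4-Cre pancreas, and at 57.9% against 46.2% and 52.3% against 43.8% in lymph node. Only 2 and 9 pancreas barcodes held both. These shares were not set to 1 depth, and the part of either overlapping gene in the Cxcr6 and Ccr9 levels was not tested.

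Cxcr5 and Ccr6 were B cell receptors in the pancreas libraries. Cxcr5 was at 157 CPM (543 UMIs) in control and 171 CPM (856 UMIs) in CD4-Cre B cells, and Ccr6 at 179 CPM (622 UMIs) and 203 CPM (1020 UMIs). The highest T cell level of either was in Foxp3 barcodes, at 19.1 to 28.2 CPM over the 4 libraries for Cxcr5 and 13.8 to 47.3 CPM for Ccr6. NK barcodes had no Cxcr5 UMI in either genotype, and 2 and 0 Ccr6 UMIs. Ccr6 in Foxp3 barcodes was lower in pancreas (17.0 and 13.8 CPM, from 8 and 11 UMIs) than in lymph node (46.1 and 47.3 CPM, from 35 and 62 UMIs). It had 0, 11, 0 and 2 UMIs in CD8-only barcodes, of which 90.9% of the 11 came from 5 barcodes, and 2.36 to 3.30 CPM in CD4-only barcodes.

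Cxcr4, the CXCL12 receptor, was found in all 6 gates of the pancreas and the 3 T cell gates of the lymph node. The 56 myeloid barcodes of control lymph node had 0 UMIs, which allows up to 17.6 CPM. It was at 104 CPM (360 UMIs; 93.4 to 115) in control and 57.4 CPM (288 UMIs; 51.0 to 64.4) in CD4-Cre pancreas B cells. CD4-only barcodes had 53.2, 35.8, 13.4 and 12.4 CPM, CD8-only barcodes 27.1, 27.7, 16.6 and 13.0 CPM, and Foxp3 barcodes 59.5, 32.7, 10.5 and 8.39 CPM in the order control pancreas, CD4-Cre pancreas, control and CD4-Cre lymph node. All pancreas values of a gate lay above its lymph node values. Within the pancreas, the CD4-Cre values of the B cell, CD4-only and Foxp3 gates lay below those of control, and the CD8-only values lay side by side.

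Pancreas was then set against lymph node within each genotype and T cell gate, where 17.6% to 28.9% of all genes were past 1.5-fold. Of 48 combinations of member, gate and genotype, 37 had 50 UMIs and 33 of these were past 1.5-fold. In control CD8-only barcodes all 6 members counted were past it, against 28.9% of all genes. The log2 ratio of pancreas to lymph node was 6.004 for Ccr2 (5.06 to 7.15), 2.75 for Cxcr3, 2.25 for Cxcr6 (2.09 to 2.41) and 0.70 for Cxcr4 (0.15 to 1.25). It was -1.95 for Ccr7 (-2.14 to -1.78) and -3.23 for Ccr9 (-3.76 to -2.74). In CD4-Cre CD8-only barcodes all 7 counted were past it, where 25.2% of all genes were. Ccr2 had 6.16, Cxcr3 2.26, Cxcr6 1.93, Cxcr4 1.09 and Cxcr5 0.97 (0.13 to 1.79), and Ccr7 had -1.08 and Ccr9 -1.72. Some of these levels are low. With 10 CPM added to each side, Cxcr5 in CD4-Cre had 0.34 and Cxcr4 in controls 0.48, both short of 1.5-fold. Control Cxcr4 was also short of it with DESeq2's size factors, at 0.55.

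The CD4-only gate gave 6 of 6 in controls, where 21.2% of all genes were past the fold, and 5 of 8 in CD4-Cre, where 17.6% were. In controls Ccr2 had a log2 ratio of 3.799, Cxcr6 3.09, Cxcr3 2.53 and Cxcr4 1.99, while Cxcr5 had -1.08 (-1.89 to -0.34) and Ccr7 -0.73. In CD4-Cre, Cxcr3 had 3.14, Cxcr6 3.07, Cxcr4 1.53 and Ccr9 -0.87 (-1.79 to -0.02), and Ccr2 6.87 with a wide interval of 5.30 to 9.16 from 3 lymph node UMIs. Ccr7 (-0.50), Ccr6 (0.39) and Cxcr5 (-0.24) did not pass 1.5-fold there. With 10 CPM added to each side, Ccr9 in CD4-Cre had -0.21 and Cxcr5 in controls -0.52 in this gate, both short of 1.5-fold. The Foxp3 gate gave 4 of 4 in controls, where 24% of all genes were past it, and 5 of 6 in CD4-Cre, where 24.2% were. Cxcr6 had 4.17 and 3.96, Ccr2 3.19 and 5.34, Cxcr3 2.30 and 3.43 and Ccr7 -1.78 and -1.42 in the 2 genotypes, and Ccr6 had -1.77 (-2.85 to -0.84) in CD4-Cre. Effector receptors were therefore higher and Ccr7 lower in pancreas in all 3 gates and both genotypes, except that Ccr7 in CD4-Cre CD4-only barcodes was lower by less than 1.5-fold. That exception depends on the scaling: with DESeq2's size factors the ratio was -0.594, just past 1.5-fold.

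**Figure D2:**
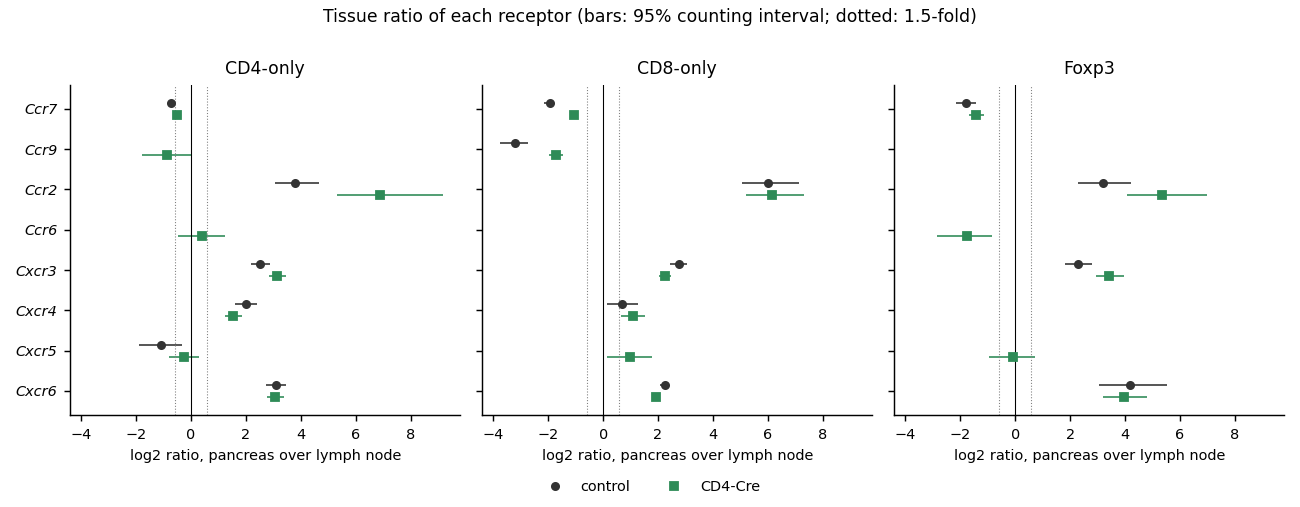
Log2 ratio of pancreas over lymph node (x axis) for each receptor (y axis) with at least 50 UMIs, in CD4-only, CD8-only and Foxp3 barcodes of controls (circles) and CD4-Cre (squares); lines are 95% counting intervals and dotted lines mark 1.5-fold. Ccr2, Cxcr3 and Cxcr6 lie right of 0 in all 3 gates and Ccr7 left of it, and Ccr9 of CD8-only barcodes reaches -3.23 in controls.

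Other scalings moved all ratios of a comparison together. With edgeR's TMM library sizes the tissue ratios shifted by -0.115 in control and -0.205 in CD4-Cre CD8-only barcodes, and with DESeq2's size factors by -0.152 and -0.256. The CD4-Cre Foxp3 tissue ratios shifted by -0.0847 and -0.104, and the lymph node CD8-only genotype ratios by 0.0977 and 0.112. For CD4-only barcodes, the CD4-Cre tissue ratios shifted by -0.0611 and -0.091, and the lymph node genotype ratios by 0.0789 and 0.0907. Pancreas T cell gates also held RNA of other cells. The summed level of 8 exocrine genes was 59.5 to 143 CPM there against 0 to 10.7 CPM in lymph node T cell gates, with 0 to 2 and 4 to 8 of the 8 genes at 0. The part of this RNA in the tissue ratios was not tested.

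CD4-Cre was set against control within each tissue and gate, where 5.32% to 10.6% of all genes were past 1.5-fold. Of 72 combinations 46 had 50 UMIs, and 13 were past 1.5-fold. The pancreas CD8-only gate held 3 of them among 6 members counted, beside 8.99% of all genes past the fold there. Ccr9 was higher in CD4-Cre, with a log2 ratio of 1.32 (0.78 to 1.90), or 2.50-fold. Ccr7 was higher with 0.80 (0.60 to 0.996), or 1.74-fold. Ccr2 was lower with -0.88 (-1.13 to -0.62). Cxcr6 had -0.33 (-0.45 to -0.21) and Cxcr3 -0.28 (-0.47 to -0.08), short of 1.5-fold with intervals below 0, and Cxcr4 had 0.04 (-0.49 to 0.57).

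In lymph node CD8-only barcodes 0 of 5 members were past the fold, where 6.13% of all genes were. Ccr7 had a log2 ratio of -0.08 (-0.15 to -0.01), Ccr9 -0.18 (-0.32 to -0.04), Cxcr6 -0.02 (-0.18 to 0.15), Cxcr3 0.21 (-0.10 to 0.53) and Cxcr4 -0.35 (-0.81 to 0.11). Their counts are large for Ccr7 (2311 and 4479 UMIs) and Ccr9 (690 and 1249 UMIs), so the narrow intervals hold only ratios near 1. With TMM and DESeq2 scaling the Ccr7 ratio turned to 0.02 and 0.03, so its direction is not settled.

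Marker levels in the pancreas CD8-only gates are given beside these ratios. Islet genes (Ins1, Ins2, Gcg, Sst and Iapp) summed to 7.43 CPM in control, with Iapp and Sst at 0, and to 42.8 CPM in CD4-Cre with none at 0. Exocrine genes summed to 143 and 109 CPM with none of 8 at 0, B cell genes to 150 and 198 CPM with 2 and 3 of 7 at 0, and myeloid genes to 258 and 267 CPM with 1 and 0 of 7 at 0. A T cell barcode may also hold NK marker UMIs. At least 2 of these were found in 55 of 417 control and 45 of 630 CD4-Cre barcodes. In lymph node CD8-only barcodes this held for 1 of 687 in control and 3 of 1452 in CD4-Cre. The part of all these markers in the receptor ratios between genotypes or tissues was not tested. Control B cell barcodes had 307 CPM of Ccr7 beside 6085 CPM of those B cell genes.

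In pancreas CD4-only barcodes 0 of 6 members were past 1.5-fold between genotypes, where 5.77% of all genes were. Ccr7 had 0.23 (0.13 to 0.33), Ccr2 -0.28 (-0.61 to 0.05), Cxcr3 -0.09 (-0.29 to 0.12), Cxcr4 -0.57 (-0.87 to -0.28), Cxcr5 0.01 (-0.79 to 0.87) and Cxcr6 -0.54 (-0.74 to -0.34). Cxcr4 was near the limit and passed it under several other settings, among them TMM (-0.61) and equal weight per barcode (-0.69). Cxcr6 passed it with doublets removed at a doubled rate (-0.67).

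In lymph node CD4-only barcodes 2 of 6 members were past the fold, both lower in CD4-Cre, where 5.32% of all genes were. Cxcr5 was at 13.6 CPM (76 UMIs) in control and 7.64 CPM (82 UMIs) in CD4-Cre. Its log2 ratio was -0.83 (-1.30 to -0.36). Cxcr3 was at 16.6 CPM (93 UMIs) and 10.2 CPM (110 UMIs), or -0.70 (-1.11 to -0.28). Both are low levels: with 10 CPM added to each side the ratios were -0.42 and -0.39, and Cxcr3 had -0.37 with equal weight per barcode. Cxcr6 had -0.52 (-0.97 to -0.07), Cxcr4 -0.11, Ccr9 0.03 and Ccr7 -0.0012 (-0.06 to 0.06).

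Among Foxp3 barcodes 1 of 5 members was past the fold in pancreas, where 10.6% of all genes were, and 1 of 4 in lymph node, where 9.73% were. In pancreas this was Cxcr4, with -0.86 (-1.69 to -0.04) from 28 and 26 UMIs. It became -0.56 when all deposited barcodes were kept. Cxcr3 was nearly level in pancreas at 0.01 (-0.29 to 0.31), and in lymph node it was lower in CD4-Cre with -1.12 (-1.78 to -0.48), from 48 and 38 UMIs. Ccr7 in lymph node had -0.23 (-0.41 to -0.04), Ccr6 0.04 and Cxcr5 0.17.

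**Figure D3:**
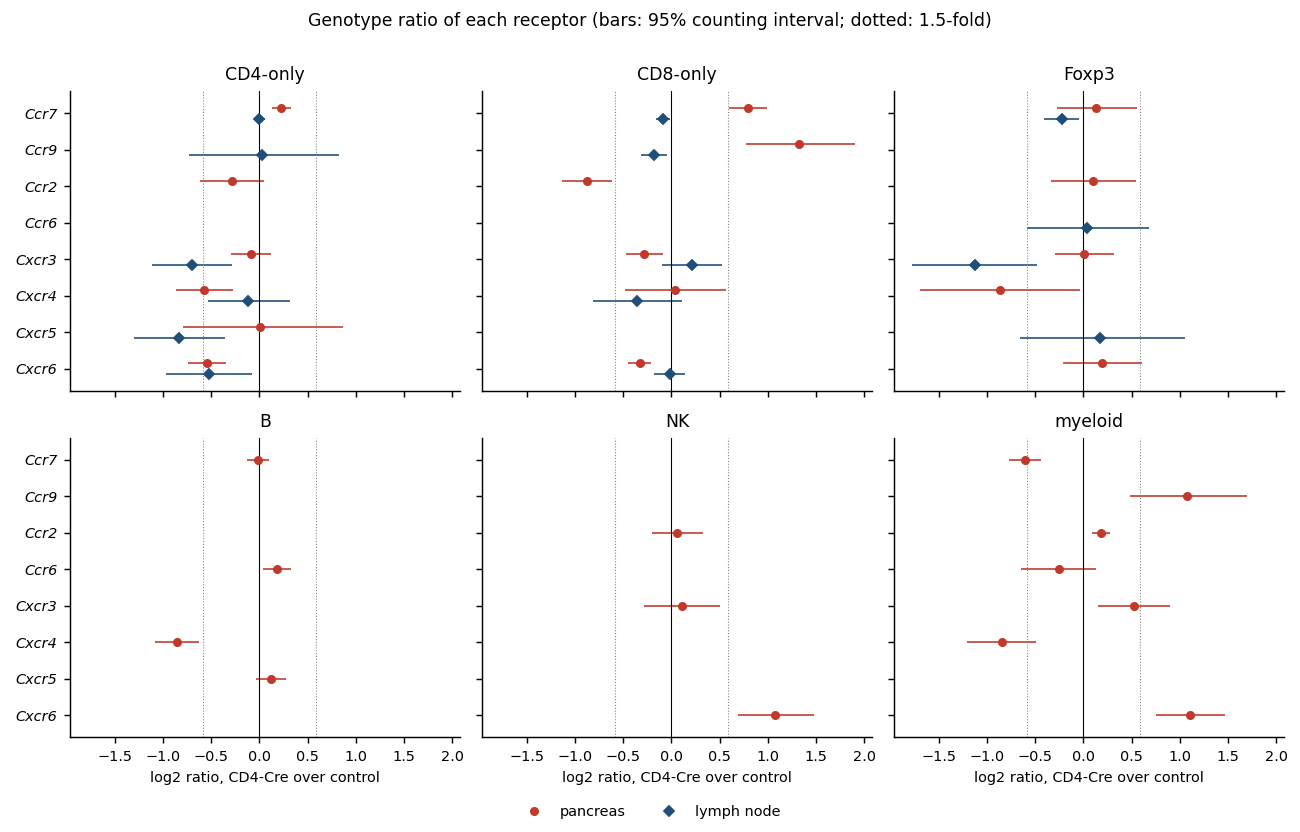
Log2 ratio of CD4-Cre over control (x axis) for each receptor (y axis) with at least 50 UMIs, in 6 gates of the pancreas (circles) and the 3 T cell gates of the lymph node (diamonds); lines are 95% counting intervals and dotted lines mark 1.5-fold. Ccr7 (0.80) and Ccr9 (1.32) lie right of the dotted line in pancreas CD8-only barcodes and near 0 in lymph node, and Cxcr4 lies left of it in B, Foxp3 and myeloid barcodes.

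In pancreas B cells 1 of 4 members was past 1.5-fold, where 5.44% of all genes were. Cxcr4 was lower in CD4-Cre, with a log2 ratio of -0.86 (-1.08 to -0.63). Its share of barcodes with a UMI, thinned, was 11.5% in control and 6.65% in CD4-Cre. Under TMM it was -0.91, and with equal weight per barcode -0.80. Ccr7 had -0.01 (-0.12 to 0.10), Ccr6 0.18 (0.04 to 0.33) and Cxcr5 0.12 (-0.03 to 0.28), the receptors that place B cells in follicles and at their borders. The exocrine genes summed to 286 CPM in control and 398 CPM in CD4-Cre B cells, with none of 8 at 0. Their part in the Cxcr4 ratio was not tested.

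In pancreas NK barcodes 1 of 3 members was past the fold, where 9.2% of all genes were. Cxcr6 was at 145 CPM (74 UMIs) in control and 305 CPM (216 UMIs) in CD4-Cre, for which log2 of their ratio was 1.08 (0.69 to 1.48). Thinned shares were 8.51% and 17.6%. Of the UMIs, 47.3% in control and 26.9% in CD4-Cre came from 5 barcodes. Ccr2 had 0.06 (-0.20 to 0.33) and Cxcr3 0.11 (-0.29 to 0.50). NK barcodes with a Cxcr6 UMI (29 of 143 and 59 of 178) differed from those without. Il7r, the interleukin-7 receptor of innate lymphoid cells and T cells, was at 183 against 9.93 CPM in control (20 and 4 UMIs) and at 170 against 2.22 CPM in CD4-Cre (44 and 1 UMIs). Eomes, a T-box factor of mature NK cells, had log2 ratios of -0.58 and -0.98 between them, and Gzma, a granzyme, -1.47 and -0.98. Rora was higher with Cxcr6, by 2.04 and 1.56. The genes of this NK split were picked after values had been seen.

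The pancreas myeloid gate had 4 of 7 members past the fold, where 8.03% of all genes were. Ccr7 (-0.61; -0.77 to -0.44) and Cxcr4 (-0.85; -1.20 to -0.49) were lower in CD4-Cre, and Ccr9 (1.08; 0.48 to 1.70) and Cxcr6 (1.11; 0.75 to 1.47) were higher. Ccr2 had 0.18 (0.09 to 0.27), Ccr6 -0.26 and Cxcr3 0.52 (0.15 to 0.90). The gate mixes cell types whose numbers differed between the libraries, so the levels were also read within its parts. Barcodes with Fscn1, a gene of mature migratory dendritic cells, numbered 49 and 33. Those resembling neutrophils numbered 133 and 72, C1q macrophages 125 and 116, type 1 dendritic cells (cDC1) 31 and 51, type 2 (cDC2) 69 and 88 and monocytes 61 and 50. Another 93 and 112 fell in no named part.

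Ccr7 was a receptor of the Fscn1 barcodes, which held 673 of the 767 UMIs in control and 463 of the 519 in CD4-Cre. Their level was 970 and 1024 CPM, so within that part the CD4-Cre value was not lower. In control lymph node, Fscn1 barcodes held 150 of the 156 Ccr7 UMIs of the myeloid gate, at 1594 CPM. Ccr7 in the whole myeloid gate had a log2 ratio of -0.02 with equal weight per barcode and -0.38 with all deposited barcodes. Cxcr4 was highest in neutrophil-like barcodes at 155 and 111 CPM (64 and 26 UMIs) and followed in monocyte-like ones at 85.6 and 76.2 CPM.

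Ccr2 was carried by cDC2-like (766 and 581 CPM), cDC1-like (389 and 325 CPM), monocyte-like (381 and 337 CPM) and C1q macrophage-like barcodes (334 and 450 CPM). Neutrophil-like barcodes had 7.26 CPM from 3 UMIs in control and 137 CPM from 32 UMIs in CD4-Cre. Cxcr3 was at 49.1 and 64.0 CPM in cDC1-like barcodes. Ccr9 in cDC2-like barcodes was at 3.33 and 31.6 CPM, from 3 and 37 UMIs. In the whole gate of CD4-Cre, 60.5% of its 76 UMIs came from 5 barcodes, with up to 18 in 1.

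Cxcr6 of the myeloid gate lay mostly in the unnamed remainder, with 57 of 97 UMIs in control and 163 of 215 in CD4-Cre, at 98.7 and 264 CPM. These barcodes had a median of 3 myeloid marker UMIs in both libraries. The 21 and 34 of them with a Cxcr6 UMI had 642 and 585 CPM of Thy1 and 303 and 274 CPM of Gata3, both lymphoid genes, against 147 and 291 CPM of Thy1 and 38.4 and 44.0 CPM of Gata3 in the rest of the remainder. Lyz2, a lysozyme of myeloid cells, was at 376 and 18.3 CPM in them, against 4539 and 3136 CPM. Without the remainder, Cxcr6 was at 9.51 and 12.1 CPM, with a log2 ratio of 0.34 (-0.28 to 0.98) that is no longer past 1.5-fold. Ccr9 (1.33), Ccr7 (-0.59) and Cxcr4 (-0.82) were still past it. This alternative and these genes were chosen after seeing the data.

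**Figure D4:**
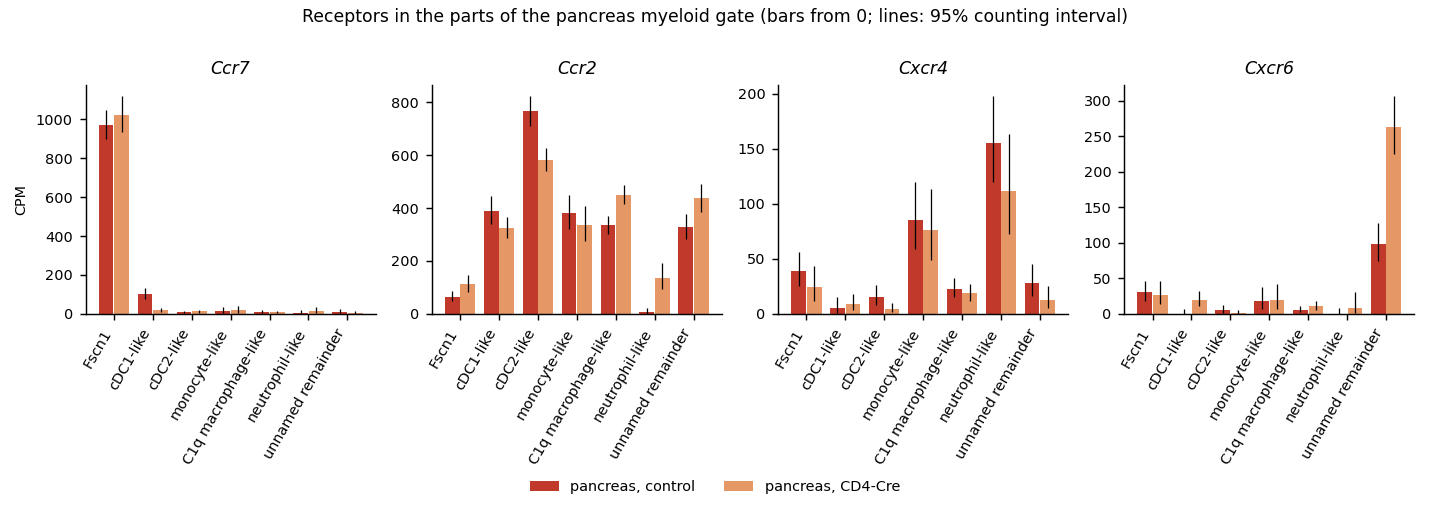
Level in CPM (y axis, from 0) of 4 receptors in the parts of the pancreas myeloid gate (x axis) for control and CD4-Cre; lines are 95% counting intervals. Ccr7 is concentrated in Fscn1 barcodes (970 and 1024 CPM), Cxcr4 is highest in neutrophil-like ones, and Cxcr6 is highest in the unnamed remainder (98.7 and 264 CPM).

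Members were also compared within libraries, between T cell barcodes with and without a UMI of another member. In pancreas CD8-only barcodes Ccr7 separated 122 control and 328 CD4-Cre barcodes from 295 and 302 without it. Those with Ccr7 had less Ccr2, at 27.3 against 198 CPM in control and 17.5 against 145 CPM in CD4-Cre (log2 ratios -2.86 and -3.05). Cxcr6 (-2.28 and -2.35), Cxcr3 (-1.32 and -1.26) and Ccl5, a chemokine of effector T cells (-2.60 and -2.65), were lower too. Lef1, a factor of naive T cells, was higher (2.18 and 1.52), and Ccr9 was higher with 3.15 in control (28 and 7 UMIs) and 2.17 in CD4-Cre (115 and 24 UMIs). Barcodes with Ccr7 thus had more Ccr9 and less Ccr2, Cxcr3 and Cxcr6 in both genotypes, though none of these 3 was missing from them.

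Lymph node CD8-only barcodes did not show this for Cxcr6. Its level differed little between barcodes with and without Ccr7 (0.20 in control, -0.16 in CD4-Cre), as did that of Ccr9 (0.15 and -0.13). Only 60 and 146 barcodes lacked Ccr7, and these had far more Ccl5, with ratios of -3.71 and -4.25. Read the other way, lymph node CD8-only barcodes with a Cxcr6 UMI (279 of 687 and 563 of 1452) had 587 against 578 CPM of Ccr7 in control and 548 against 550 CPM in CD4-Cre. Their Cxcr3 was at 22.6 against 36.8 CPM in control and 34.0 against 36.1 CPM in CD4-Cre. The highest number of Cxcr6 UMIs in 1 barcode was 7 and 8 there, against 23 and 24 in pancreas.

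In pancreas CD8-only barcodes with Cxcr6 (224 of 417 and 265 of 630) the company was different. Ccr2 was at 224 against 49.3 CPM in control and 138 against 25.0 CPM in CD4-Cre. Cxcr3 was at 265 against 130 and 232 against 110 CPM. Itga1, an integrin chain of tissue-resident T cells, was at 101 against 8.22 and 48.1 against 3.21 CPM, and Ifng at 160 against 34.1 and 112 against 33.3 CPM. Ccr7 was lower at 85.2 against 229 and 163 against 350 CPM.

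Pancreas CD4-only barcodes with Cxcr6 were few, 91 of 791 in control and 166 of 1847 in CD4-Cre, and stood further from the rest. Ccr2 was at 222 against 8.30 CPM in control and 218 against 8.74 CPM in CD4-Cre. Cxcr3 was at 312 against 58.5 and 341 against 57.6 CPM, and Ccl5 at 3772 against 232 and 3737 against 270 CPM. Pdcd1, an inhibitory receptor of activated T cells, was at 259 against 32.4 and 201 against 53.7 CPM. In both genotypes most Ccr2 UMIs of CD4-only barcodes lay in those with Cxcr6, 97 of 118 in control and 174 of 228 in CD4-Cre.

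**Figure D5:**
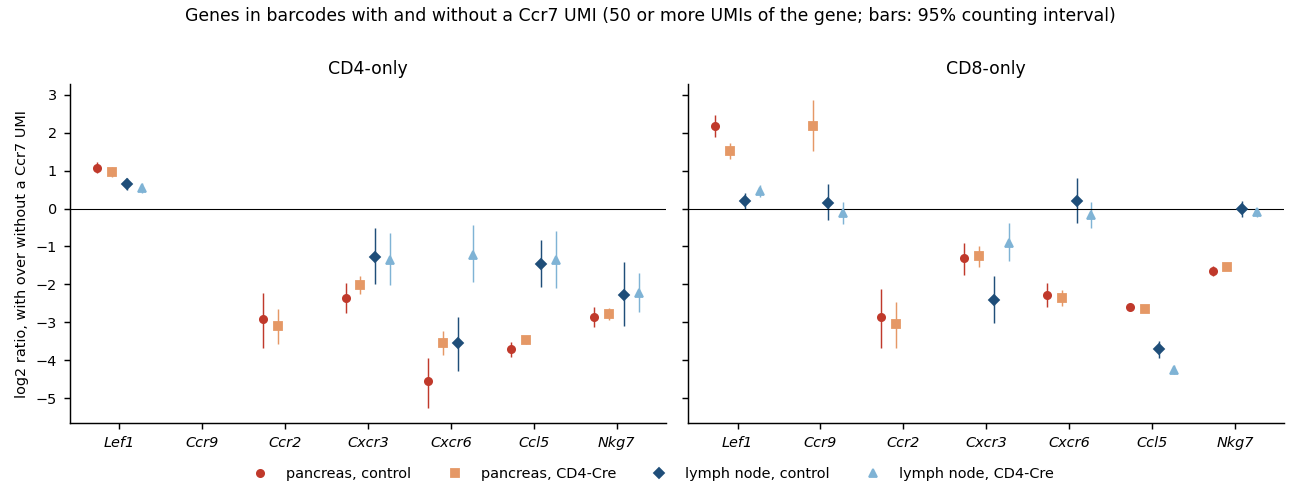
Log2 ratio (y axis) of the level of 7 genes (x axis) in barcodes with over those without a Ccr7 UMI, in CD4-only and CD8-only barcodes of the 4 libraries (colours and marker shapes); genes with under 50 UMIs are left out and lines are 95% counting intervals. Ccr2, Cxcr3 and Cxcr6 lie below 0 in pancreas, whereas Cxcr6 of lymph node CD8-only barcodes lies near 0 (0.20 and -0.16).

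Cxcr5 marked few CD4-only barcodes, 44 of 1151 in control and 52 of 2399 in CD4-Cre lymph node. They had 356 against 20.5 CPM and 276 against 23.8 CPM of Pdcd1, and 123 against 360 CPM and 21.7 against 278 CPM of Il7r. Ccr7 was at 567 against 646 CPM in control and 354 against 651 CPM in CD4-Cre. High Pdcd1 with low Il7r is known of follicular helper T cells. In CD4-Cre pancreas, 33 CD4-only barcodes with Cxcr5 had 549 against 57.7 CPM of Pdcd1 and 5.44 against 80.1 CPM of Cxcr6, the lower value from 1 UMI.

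A list of other chemokine receptors was read in the same way. In pancreas CD8-only barcodes Cx3cr1, the fractalkine receptor of terminal effector cells and monocytes, was at 73.2 CPM (138 UMIs) in control and 15.0 CPM (45 UMIs) in CD4-Cre. Its log2 ratio was -2.28 (-2.80 to -1.79). In pancreas CD4-only barcodes Ccr4 was higher in CD4-Cre (1.09; 0.09 to 2.23, from 10 and 50 UMIs) and Ccr8 lower (-0.62; -1.05 to -0.18). Ackr2 in B cells (1.05; 0.18 to 2.0015), Cx3cr1 in NK barcodes (-0.62; -1.43 to 0.18) and Cxcr2, the neutrophil receptor, in the myeloid gate (-1.14; -1.36 to -0.93) were also past 1.5-fold. The Cxcr2 ratio is of the whole myeloid gate, in which neutrophil-like barcodes numbered 133 in control and 72 in CD4-Cre. The part of these numbers in it was not tested. Between tissues, Cx3cr1 of CD8-only barcodes was at 138 UMIs in control pancreas and 0 in control lymph node. Ccr8 was higher in pancreas CD4-only (2.02 and 1.34) and Foxp3 barcodes (1.71 and 2.06), and Ccr4 in those of CD4-Cre (1.36; and 0.84, -0.02 to 1.70).

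Of the 12 ligands found in the feature list, 7 reached 50 UMIs in the pancreas myeloid gate. Of these 7, 4 were past 1.5-fold between genotypes, where 8.03% of all genes were. Cxcl13, the ligand of CXCR5, was at 171 CPM (818 UMIs) in control and 82.5 CPM (406 UMIs) in CD4-Cre (-1.05; -1.23 to -0.88). Cxcl16, the ligand of CXCR6, was at 283 and 182 CPM (-0.64; -0.76 to -0.51). Of the CCR2 ligands, Ccl7 was lower (-1.07; -1.60 to -0.56) and Ccl12 higher (0.62; 0.30 to 0.93). Cxcl9, a CXCR3 ligand, was at 402 and 294 CPM (-0.45; -0.55 to -0.35), short of 1.5-fold. These myeloid ratios are of the whole gate, whose parts differed in number between the libraries. What those numbers add to the ligand ratios was not tested. In pancreas CD8-only barcodes Cxcl10 was lower in CD4-Cre (-0.96; -1.69 to -0.24) and Cxcl13 went from 1 UMI in control to 54 (5.09; 2.55 to 10.42). In lymph node, Cxcl10 of CD4-only barcodes was higher in CD4-Cre (1.84; 0.76 to 3.12, from 8 and 55 UMIs), and Ccl25 of CD8-only barcodes had -0.64 with an interval that holds 0.

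Over the 19 combinations of gate and library with at least 50 barcodes, the pattern of each member was compared with 9980 genes by Pearson correlation of log2(CPM + 10). These points share libraries, depth and foreign RNA, so the values describe likeness only. Ccr2 was like Frmd4b (r = 0.95) and Tbc1d10b (0.94), and Cxcr3 most like Ttc39c (0.95), Tigit (0.94) and Atp2b4 (0.94). Cxcr6 was nearest to the cytotoxic granule gene Nkg7 (0.92), then Med30 (0.89). Cxcr5 was nearest to Fcrl1 (0.96), Pml (0.95) and Parp1 (0.93), and Ccr6 to Pold4 (0.92), Fcrl1 (0.91) and Tnfrsf13b (0.91). Ccr9 was nearest to Gm43698 (0.94), Osbpl6 (0.90) and Lcn4 (0.89), Cxcr4 to Kdm2a (0.94), Ddx3x (0.90) and Ubn2 (0.90), and Ccr7 to Rpl28 (0.87), Rps26 (0.86) and Cox7a2l (0.86). Between members, r was 0.86 for Ccr6 with Cxcr5, 0.86 for Cxcr3 with Cxcr6 and -0.79 for Ccr7 with Ccr2.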

How the data were processed

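The deposited matrices hold raw UMI counts per gene and barcode, made by the authors with Cell Ranger on mm10, per the submitters' processing notes. The matrix headers name software version 3.0.0. Aligner, annotation and counting strand are not given in the sources used here. Replicate cultures or animals are not resolved: each library pools its mice, and no sample column was left unused (0).

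Barcodes with under 500 genes or over 10% mitochondrial UMIs were left out. Doublets were scored against 2 simulated doublets per barcode (2000 genes, 30 components, 50 neighbours) and removed at 0.8% per 1000 barcodes, 75 to 388 per library. Gates needed at least 2 marker UMIs and a 5-fold excess over other lineages, and at least 50 barcodes. Gate sums were divided by gate totals. Poisson, Clopper-Pearson and conditional binomial intervals were exact, at 95%. They cover counting error only, and lower depth widens them. A count of 0 takes a floor of 3 counts. The ratio script was tested on simulated data.

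The members and lists, including 16 other receptors, the ligands, the marker lists and the motifs, were chosen with earlier results of these data known. All members are named. Some other genes, and a split of barcodes by 1 of them, are not reported here. Of the receptor and ligand lists those past 1.5-fold with 50 UMIs are named, at most 6 per comparison, and for each member the 3 genes most correlated with it among those with at least 200 UMIs. Alternatives covered barcode filters, doublets, gates, scaling with edgeR 4.0.16 and DESeq2 1.42.0, barcode weight, a pseudocount of 10 CPM, thinning and thresholds. Python 3.11.15, numpy 2.4.6, scipy 1.17.1, pandas 2.3.3, scikit-learn 1.9.0 and R 4.3.3 were used.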

Additional observations from a re-analysis of the deposited data

Results flagged for a closer look

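In CD8-only barcodes the genotype ratio of 2 members had opposite signs in the 2 tissues, with intervals that leave out 0 in both. Ccr7 had a log2 ratio of CD4-Cre to control of 0.80 in pancreas and -0.08 in lymph node, and Ccr9 of 1.32 and -0.18. With 1 library per group the difference between tissues was not tested. The lymph node values are small, and that of Ccr7 turned positive (0.02) under TMM scaling, which shifted every ratio of that comparison by 0.0977. Ccr9 stayed below 0 there at -0.08. The pattern was not particular to these 2 genes. By the same rule Lef1 (0.47 in pancreas and -0.28 in lymph node) and Il7r (0.39 and -0.30) had it too. Ccl5 (-0.81 and 0.70), Nkg7 (-0.43 and 0.16) and Gzma (-1.46 and 1.33) had it in the other direction. How many of all genes had it was not counted.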

How the results depend on the processing

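No member ratio that was past 1.5-fold as reported changed direction under any alternative. Some ratios short of the fold did change sign, such as that of Ccr7 between genotypes in lymph node CD8-only barcodes. The genotype ratio of Cxcr6 in pancreas CD4-only barcodes did so within the split of barcodes that is not reported here. The counts of members past 1.5-fold ranged from 9 to 15 (13 as reported) over the genotype comparisons and from 29 to 35 (33 as reported) over the tissue comparisons, the lowest with a pseudocount of 10 CPM. Pooled over genotype comparisons, 7.20% of all genes were past the fold, 1.27% at 2-fold and 12.7% with a minimum of 20 UMIs. Over tissue comparisons 23.2% were past it and 8.43% at 2-fold. Those settings raise the fold or admit fewer UMIs by construction. The calls for Ccr7, Ccr9 and Ccr2 in pancreas CD8-only barcodes and Cxcr4 in pancreas B cells held at 1.5-fold under the other barcode filters, doublet rates, gates, scalings, barcode weight and pseudocount. The cause of lost or gained calls was not tested. Shares of barcodes moved beyond their interval in 81 values at 2000 UMIs and in 112 without thinning, since depth sets them. No paired analysis was possible because each group holds 1 library. With 1 library per group, leaving a replicate out was not possible either. Counts were low for Ccr6 in CD8-only and Ccr9 in Foxp3 barcodes, and NK barcodes had no Cxcr5 UMI. The part of depth in these counts was not tested.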
